A study of Mus musculus with 8 samples.

Results

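The DNA replication machinery is described here as 40 genes given by symbol, which cover origin licensing, the MCM helicase and its activators, the replicative polymerases, the clamp and its loader, the single-strand binding proteins, Okazaki fragment joining and chromatin assembly. All 40 were found among the 55536 genes counted, and all 40 were among the 11189 genes that passed the expression filter and were tested. The RNA came from CD8+ T cells of lymph nodes of OT-I mice, whose rearranged transgenic receptor recognises SIINFEKL, a peptide of ovalbumin, and which were on a *Rag1* knockout C57BL/6 background, so that no other receptor can be rearranged. Donors were 5 to 12 weeks old. Cells of both groups were activated for 2 days with 100 nM peptide and then grown for 2 days with 20 ng/ml human IL-2. During the IL-2 phase the GC7 group (4 libraries) received 10 µM GC7, a spermidine analogue that blocks the enzyme DHPS and thereby hypusination of the translation factor eIF5a, and the mock group (4 libraries) received the acetic acid vehicle. The study describes the 4 libraries of a group as biological replicates and the sources used here do not say how many mice gave each one, or whether same-numbered libraries share a donor.

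Replication of the genome is prepared in G1, when the origin recognition complex (ORC), CDC6 and CDT1 load the MCM helicase onto DNA, a step called licensing that geminin holds back later in the cycle. In S phase, CDC45, the GINS complex and MCM10 turn the loaded helicase into an active fork. Polymerase alpha with primase lays down primers, polymerase epsilon extends the leading strand and polymerase delta the lagging strand, both held by the clamp PCNA, which the RFC complex loads. RPA covers single-stranded DNA, FEN1 and DNA ligase 1 join Okazaki fragments, and CAF-1 places histones on the new DNA. Many of these genes are switched on by E2F transcription factors as a cell commits to division, and a T cell that meets antigen goes from rest to very fast cycling.

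Promoter windows, from 250 bases before to 50 bases after a gene's start (RefSeq, GRCm38.p6), were at hand for 32 of the 40 genes, 5 of which had several. *Gins1*, *Gins2*, *Gins4*, *Rfc2*, *Mcm4*, *Prim2*, *Pole* and *Gmnn* had no entry. The windows were searched on both strands for 4 E2F-like motifs (TTTNGCGC, TTTCCCGC, TTTGGCGC and GGCGGGAA; every TTTGGCGC is also a TTTNGCGC, and TTTCCCGC and GGCGGGAA can overlap) and for the CCAAT box, a common promoter element. At least one of the 4 E2F-like motifs stood in the windows of 17 of the 32 genes (53.1%), against 4.59% of the 27025 genes of the whole promoter table. The CCAAT box stood in 21 of the 32 (65.6%), against 41.1% of the table. The search also took in the cell cycle homology motifs TTTGAA and TTCGAA, found in 5 and 2 of the 32 genes (15.6% and 6.25%), against 20.2% and 1.8% of the table. The table was not limited to genes that passed the expression filter, as all 32 did, so these shares compare unlike sets. A motif match is a description of the letters and not evidence of binding. The windows of 6 genes are shown, with E2F-like matches on either strand in capitals, because these genes went in different directions in the data below. *Mcm6*, *Mcm7* and *Pold1* were lower in GC7 libraries, *Gins3* and *Cdc6* were higher, and *Rfc3* passed in neither direction. *Mcm7* has a further window, not shown, which holds none of the 4 E2F-like motifs.
*Mcm6* (chr1:128359656-128359955, minus strand): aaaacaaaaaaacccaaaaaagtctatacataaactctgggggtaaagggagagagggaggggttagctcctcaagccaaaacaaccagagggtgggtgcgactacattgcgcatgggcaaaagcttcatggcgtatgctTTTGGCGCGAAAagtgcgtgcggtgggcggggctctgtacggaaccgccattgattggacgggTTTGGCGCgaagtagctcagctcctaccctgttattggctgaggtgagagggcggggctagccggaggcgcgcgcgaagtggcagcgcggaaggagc
*Mcm7* (chr5:138171834-138172133, minus strand): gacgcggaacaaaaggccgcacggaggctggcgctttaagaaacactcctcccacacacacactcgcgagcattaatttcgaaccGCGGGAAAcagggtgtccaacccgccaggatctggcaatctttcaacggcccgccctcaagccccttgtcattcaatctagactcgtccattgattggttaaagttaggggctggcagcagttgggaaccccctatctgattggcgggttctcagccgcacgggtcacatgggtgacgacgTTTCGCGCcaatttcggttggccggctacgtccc
*Pold1* (chr7:44548766-44549065, minus strand): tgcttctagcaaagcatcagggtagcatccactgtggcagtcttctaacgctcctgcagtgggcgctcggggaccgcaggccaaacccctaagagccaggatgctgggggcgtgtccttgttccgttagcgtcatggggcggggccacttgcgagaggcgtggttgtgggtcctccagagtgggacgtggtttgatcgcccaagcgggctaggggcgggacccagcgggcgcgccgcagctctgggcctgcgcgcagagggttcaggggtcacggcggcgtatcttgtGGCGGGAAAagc
*Gins3* (chr8:95633309-95633608, plus strand): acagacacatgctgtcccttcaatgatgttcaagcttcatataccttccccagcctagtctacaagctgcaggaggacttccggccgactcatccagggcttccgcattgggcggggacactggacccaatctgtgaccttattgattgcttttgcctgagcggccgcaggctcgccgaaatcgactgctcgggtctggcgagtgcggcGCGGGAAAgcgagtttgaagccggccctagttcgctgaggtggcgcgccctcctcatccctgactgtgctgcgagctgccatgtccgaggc
*Cdc6* (chr11:98907901-98908200, plus strand): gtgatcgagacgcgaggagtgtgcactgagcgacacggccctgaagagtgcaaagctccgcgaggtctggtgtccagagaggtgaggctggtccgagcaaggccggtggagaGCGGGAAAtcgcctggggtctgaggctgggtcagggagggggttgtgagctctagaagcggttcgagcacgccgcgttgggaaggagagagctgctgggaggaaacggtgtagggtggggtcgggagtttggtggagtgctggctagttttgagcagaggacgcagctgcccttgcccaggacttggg
*Rfc3* (chr5:151651159-151651458, minus strand): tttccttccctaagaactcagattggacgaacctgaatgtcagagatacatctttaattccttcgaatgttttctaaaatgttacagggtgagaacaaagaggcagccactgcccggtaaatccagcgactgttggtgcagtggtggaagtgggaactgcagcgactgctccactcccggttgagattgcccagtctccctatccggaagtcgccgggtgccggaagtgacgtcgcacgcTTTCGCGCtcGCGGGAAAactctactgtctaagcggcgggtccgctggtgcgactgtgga
In the *Mcm6* window the capitals lie 110 to 99 and 47 to 40 bases before the start, in the *Gins3* window 41 to 34 bases before it, and in the *Cdc6* window 138 to 131 bases before it. In the *Pold1* window they lie after the start, and in the *Mcm7* and *Rfc3* windows both before it and from the start onward. Of the matched genes that were lower in GC7 libraries, 6 of 9 had an E2F-like match, beside 3 of 7 that were higher and 8 of 16 that passed in neither direction. Windows with a match thus came from genes of all 3 kinds.

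The libraries held 20045041 to 25284730 counts in the mock group and 17528776 to 23449164 in the GC7 group, and the 40 genes together took 0.507 to 0.526% of a mock library and 0.477 to 0.502% of a GC7 library. Every member had at least 192 reads in every library. The spread between replicates was 6.29% in mock and 5.11% in GC7 libraries (median coefficient of variation over the members). All 8 marker genes of the labelled cell type, the CD8 T cell, were detected, with summed levels of 8200 to 9747 CPM in mock and 5517 to 7298 CPM in GC7 libraries. *Gzmb* (4438 against 2907 CPM) and *Thy1* (1634 against 1131 CPM) differed most in level. Both were lower in GC7 libraries at an edgeR adjusted p under 0.01, as were *Trac*, *Cd3g* and *Cd3e*. *Cd3d* and *Cd8b1* had negative estimates that did not pass. Only *Cd8a* was higher in GC7 libraries (703 against 978 CPM, log2 fold change 0.48 ± 0.061, edgeR adjusted p = 3.43e-05). The summed levels of CD4 T cell, B cell, NK cell and erythroid genes stayed at or below 1.40 CPM in every library, and *Ms4a1* was at 0 in all of them. Of the myeloid list, 4 of 5 genes were below 1 CPM and *Cd68* made most of its sum (8.61 to 11.3 CPM in mock, 5.78 to 9.65 CPM in GC7 libraries). The stromal list summed to 72.7 to 77.1 CPM in mock and 52.0 to 57.0 CPM in GC7 libraries. Nearly all of it was *Epcam* and *Pecam1*, while *Col1a1* stayed below 1 CPM in every library. Which cells these reads came from, and the part of any other cells in the results, was not tested. Mock replicate 2 stood apart from the other mock libraries, with lower values for long genes. Its deviation from their mean fell with exon length across the 11189 genes (Pearson r = -0.52 across genes, which are not independent replicates), so results that rest on it are also given without it.

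The mRNAs of the replication machinery differed between GC7 and mock libraries in both directions, by small amounts and about as often as those of all genes tested. In edgeR's quasi-likelihood F test with Benjamini-Hochberg adjustment over the 11189 genes, 8 of the 40 genes rose (20%, against 23.0% of all genes tested) and 11 fell (27.5%, against 23.5%) at an adjusted p under 0.01, so the shares called were near the background in either direction. The largest rise was that of *Gins3* (54.3%) and the largest fall that of *Pold1* (a change of -29.9%). No member passed a 2-fold change in either direction, also at an unadjusted p under 0.05, in DESeq2 or in limma-voom, against 3.17% (higher) and 5.31% (lower) of all genes tested. The median log2 fold change over the 40 genes was -0.047, beside 0.018 for all genes tested. For 24 of the 40 genes the ranges of mock and GC7 libraries did not overlap, against 55.6% of all genes tested, and these 24 include all 19 genes called. With library totals in place of TMM factors (edgeR's scaling of libraries), 10 of the 40 rose and 8 fell, so the balance of rises and falls depends on the scaling. As each library was left out in turn, the falls numbered 10 or 11, while the rises went from 8 to between 3 and 5 on leaving out any library other than mock replicate 2, and stood at 8 without that library. In these bulk libraries, another share of cells of a kind (such as cells in S phase) and another amount of mRNA per cell cannot be told apart. By DNA staining of GC7-treated cells, the study reported an accumulation in S phase. Its part in these values was not tested.

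**Figure D1:**
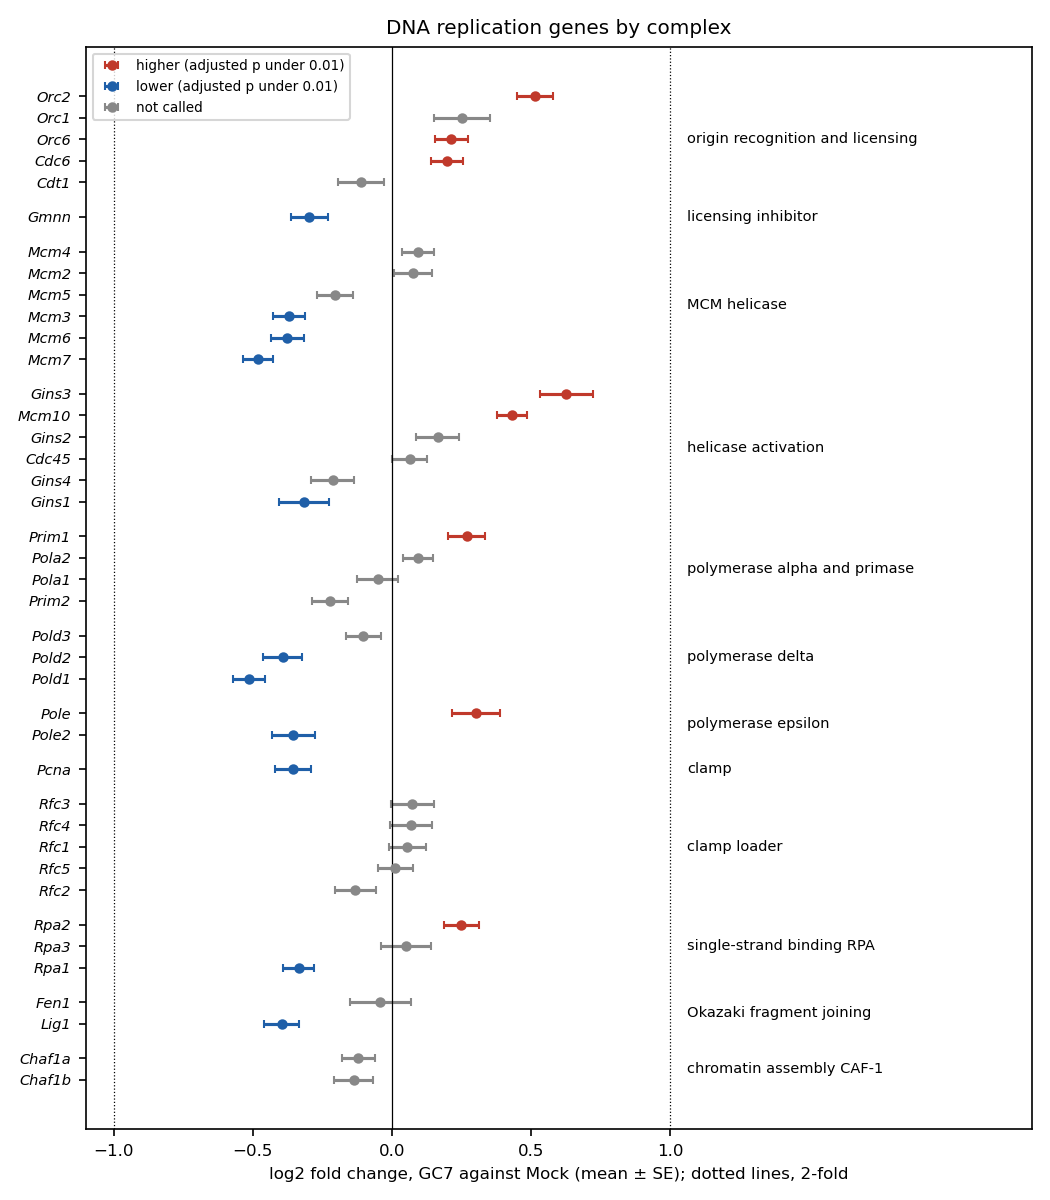
Log2 fold change of GC7 against mock (x axis, mean ± SE from edgeR, n = 4 libraries per group) for the 40 replication genes (y axis), grouped by complex. Red points are higher and blue points lower at an adjusted p under 0.01, grey points were not called, and the dotted lines mark a 2-fold change, which no gene reached. Most complexes hold red or blue points beside grey ones.

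Among the licensing genes, *Orc2*, *Orc6* and *Cdc6* rose in GC7 libraries, *Gmnn* fell, and *Orc1* and *Cdt1* did not pass. *Orc2* (chromosome 1, 58462771 to 58505109, GRCm38), a core subunit of ORC, was measured at 29.2, 28.2, 30.02 and 28.5 CPM in mock replicates 1 to 4 and 40.9, 44.5, 40.9 and 39.5 CPM in GC7 replicates 1 to 4 (scaled CPM, library-size-normalised counts with TMM scaling). All 4 GC7 values lay above all 4 mock values, with means of 41.4 ± 2.13 against 28.995 ± 0.798 CPM (SD, n = 4; log2 fold change 0.52 ± 0.065, adjusted p = 2.63e-05). Exons of *Nif3l1* on the opposite strand cover 29.8% of the exon bases of *Orc2*, and the strand setting of the counting is not given in the sources used here, so reads of the 2 genes may have been exchanged. *Nif3l1* itself was at 22.4 CPM in mock and 24.9 CPM in GC7 libraries. *Orc1*, the largest ORC subunit, had 18.9, 15.2, 17.1 and 18.1 CPM in mock replicates 1 to 4 and 23.5, 21.3, 18.1 and 19.5 CPM in GC7 replicates 1 to 4. Those groups overlapped, and its log2 fold change of 0.25 ± 0.10 did not pass (adjusted p = 0.0449). *Orc6*, the smallest subunit, rose from 52.8 ± 2.20 to 61.2 ± 1.99 CPM (log2 fold change 0.21 ± 0.06, adjusted p = 0.00817).

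*Cdc6*, the ATPase that joins ORC to recruit the helicase, had 62.96, 61.1, 59.3 and 58.6 CPM in mock replicates 1 to 4 and 69.5, 72.5, 68.03 and 67.6 CPM in GC7 replicates 1 to 4. The groups were apart by a small step (log2 fold change 0.20 ± 0.057, adjusted p = 0.00977), and both the *Cdc6* and the *Orc6* call were lost under more than 10 of the 17 alternative fits, 13 for *Cdc6* (adjusted p up to 0.0588) and 12 for *Orc6* (up to 0.0405), without a change of direction. Leaving out any single library other than mock replicate 2 was enough for either. *Cdt1*, which brings the helicase to ORC, had 134, 145, 122 and 130.0 CPM in mock replicates 1 to 4 and 133, 126, 104 and 129.7 CPM in GC7 replicates 1 to 4, with GC7 replicate 3 the lowest of the 8 libraries and the others intermixed (log2 fold change -0.11 ± 0.082, adjusted p = 0.267). *Gmnn*, which encodes geminin, the protein that binds and holds back CDT1, had 107, 122, 104 and 108 CPM in mock replicates 1 to 4 and 86.8, 86.4, 91.5 and 94.6 CPM in GC7 replicates 1 to 4. Every GC7 library was below every mock library (log2 fold change -0.30 ± 0.067, adjusted p = 0.00215). With library totals as the scaling, the fall of *Gmnn* was -0.20 with an adjusted p of 0.0114 in edgeR's test, just outside the threshold.

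Ratios between partner genes within a library do not depend on how libraries are scaled, so 6 ratios were compared between the groups by two-sided exact permutation tests, with p-values adjusted over the 6. The smallest p such a test can give with 4 against 4 libraries is 0.0286, which adjusts to 0.0571 when 3 of the 6 ratios reach it. The threshold for the ratios was an adjusted p of 0.05, and none of the 6 passed it. The log2 ratio of *Cdt1* to *Gmnn* was 0.32, 0.25, 0.24 and 0.27 in mock replicates 1 to 4 and 0.61, 0.54, 0.19 and 0.46 in GC7 replicates 1 to 4. GC7 replicate 3 was the lowest of the 8 and the other 3 GC7 libraries the highest, and the difference of 0.18 did not pass (exact permutation p = 0.143, adjusted p = 0.214). The log2 ratio of *Cdc6* to *Orc1* was 1.80 ± 0.14 in mock and 1.76 ± 0.14 in GC7 libraries (SD, n = 4), with overlapping groups and a difference of -0.047 (exact permutation p = 0.657, adjusted p = 0.789).

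The MCM helicase is a ring of 6 different subunits, and its 6 mRNAs were not all called. *Mcm3*, *Mcm6* and *Mcm7* fell, while *Mcm2*, *Mcm4* and *Mcm5* did not pass. *Mcm7* (chromosome 5, 138164583 to 138172422) had 319.9, 346, 320.2 and 319.8 CPM in mock replicates 1 to 4 and 229, 235, 237 and 234 CPM in GC7 replicates 1 to 4. Mock replicate 2 was the highest library, but the other 3 mock libraries, which lay close together, were also far above all GC7 libraries (log2 fold change -0.48 ± 0.055, adjusted p = 1.31e-05), and without mock replicate 2 the log2 fold change was -0.45. *Mcm6* (chromosome 1, 128331590 to 128359664) had 456, 456, 437 and 438 CPM in mock replicates 1 to 4 and 346, 363, 322 and 346 CPM in GC7 replicates 1 to 4, with no overlap between the groups (log2 fold change -0.38 ± 0.059, adjusted p = 0.000172). *Mcm3* fell from 376 ± 8.48 to 291 ± 12.3 CPM (log2 fold change -0.37 ± 0.057, adjusted p = 0.000148). The log2 fold change of *Mcm5* was -0.20 ± 0.064 (adjusted p = 0.015), outside the threshold in edgeR's test and inside it in DESeq2 (adjusted p = 0.00253). *Mcm2* and *Mcm4* had log2 fold changes of 0.074 ± 0.069 and 0.093 ± 0.057, with 95% intervals of -0.06 to 0.21 and -0.019 to 0.21. The fall of *Mcm7* and the level of *Mcm4* were thus 0.574 apart on the log2 scale. Per length, the 6 mRNAs ranged in mock libraries from 30.98 CPM per kb of exon (*Mcm2*) to 100.3 CPM per kb (*Mcm3*). Of the *Mcm7* exon bases, 12.6% overlap other genes, and near-identical pseudogenes of *Mcm4*, *Mcm6* and *Mcm7* were below the expression filter.

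Among the genes that activate the helicase, *Gins3* and *Mcm10* rose, *Gins1* fell, and *Cdc45*, *Gins2* and *Gins4* did not pass. *Gins3* (chromosome 8, 95633453 to 95645060), a subunit of the 4-part GINS complex, had 13.7, 16.1, 17.01 and 17.04 CPM in mock replicates 1 to 4 and 24.2, 22.4, 27.96 and 24.1 CPM in GC7 replicates 1 to 4. The lowest GC7 library was above the highest mock library, and this was the largest rise of the 40 genes (log2 fold change 0.63 ± 0.10, adjusted p = 0.000129). *Mcm10* (chromosome 2, 4989714 to 5012791), which binds the assembled helicase and is needed for its activation, had 71.2, 69.04, 72.99 and 69.6 CPM in mock replicates 1 to 4 and 97.8, 95.1, 93.3 and 94.8 CPM in GC7 replicates 1 to 4, with narrow groups that were well apart (log2 fold change 0.43 ± 0.053, adjusted p = 2.51e-05). *Cdc45*, a permanent part of the active helicase, had 84.3, 90.2, 78.02 and 85.99 CPM in mock replicates 1 to 4 and 86.1, 87.02, 93.5 and 87.1 CPM in GC7 replicates 1 to 4. Its groups overlapped, with GC7 replicate 3 the highest library (log2 fold change 0.063 ± 0.062, 95% interval -0.059 to 0.19, adjusted p = 0.401).

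Of the other GINS genes only *Gins1* was called. It fell from 25.8 ± 2.95 to 20.8 ± 1.19 CPM (log2 fold change -0.32 ± 0.091, adjusted p = 0.00957), a call lost under 9 of the 17 alternative fits (adjusted p up to 0.0401), among them on leaving out any GC7 library, mock replicate 4 or mock replicate 2 (without the last, log2 fold change -0.24, adjusted p = 0.0184 in edgeR's test). For *Gins4* the log2 fold change was -0.21 ± 0.078 (adjusted p = 0.0319). For *Gins2* it was 0.16 ± 0.078 (adjusted p = 0.087), and 67.3% of the exon bases of *Gins2* are shared with *Gse1* on the opposite strand. The range within this group, from *Gins1* to *Gins3*, was 0.941 on the log2 scale, the widest of the complexes. The log2 ratio of *Mcm10* to *Cdc45* was -0.24, -0.39, -0.10 and -0.31 in mock replicates 1 to 4 and 0.18, 0.13, -0.0034 and 0.12 in GC7 replicates 1 to 4. The groups did not overlap and the difference was 0.36. It had the smallest p the test allows and did not pass (exact permutation p = 0.0286, adjusted p = 0.0571).

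Of the polymerase alpha and primase genes, *Prim1* rose and the other 3 did not pass in edgeR's test. *Prim1* (chromosome 10, 128015168 to 128030037), the catalytic primase subunit that makes the RNA primer, had 78.7, 80.4, 75.97 and 79.3 CPM in mock replicates 1 to 4 and 88.9, 95.9, 105 and 89.1 CPM in GC7 replicates 1 to 4. The groups were apart, with GC7 replicate 3 the highest (log2 fold change 0.27 ± 0.066, adjusted p = 0.00382), and the call was lost under 5 of the 17 alternative fits with adjusted p up to 0.0145, among them without GC7 replicate 2 and without mock replicate 1, 3 or 4. *Pola1*, the catalytic subunit of polymerase alpha, had 80.6, 67.8, 77.5 and 69.8 CPM in mock replicates 1 to 4 and 70.8, 78.2, 68.97 and 67.2 CPM in GC7 replicates 1 to 4, with overlapping groups (log2 fold change -0.052 ± 0.075, 95% interval -0.20 to 0.095). *Pola2* was at 0.093 ± 0.054 and *Prim2*, the large primase subunit, at -0.22 ± 0.065 (adjusted p = 0.0107). *Prim2* was called lower in 4 of the 17 alternative fits, with RLE factors, with TMM without mitochondrially encoded genes, in DESeq2 (adjusted p = 0.00335) and without mock replicate 2 (adjusted p = 0.00617 in edgeR's test), so the 2 primase mRNAs had estimates of opposite sign. The log2 ratio of *Pola1* to *Prim1* was 0.034, -0.24, 0.028 and -0.18 in mock replicates 1 to 4 and -0.33, -0.29, -0.61 and -0.41 in GC7 replicates 1 to 4. All GC7 libraries were lower than all mock libraries, by 0.32 on the log2 scale in the mean. The difference did not pass (exact permutation p = 0.0286, adjusted p = 0.0571).

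Of the polymerase delta genes, *Pold1* and *Pold2* fell, and the catalytic subunit of polymerase epsilon rose. *Pold1* (chromosome 7, 44532746 to 44548849), the catalytic subunit of the lagging strand polymerase, had 257, 273, 249 and 261 CPM in mock replicates 1 to 4 and 179.8, 175, 182 and 193 CPM in GC7 replicates 1 to 4. All mock libraries lay far above all GC7 libraries, and this was the largest fall of the 40 genes (log2 fold change -0.51 ± 0.058, adjusted p = 1.16e-05). *Pold2*, its accessory subunit, had 137, 163, 133 and 145 CPM in mock replicates 1 to 4 and 112, 111, 105 and 112 CPM in GC7 replicates 1 to 4 and also fell without overlap (log2 fold change -0.39 ± 0.07, adjusted p = 0.000444), with mock replicate 2 the highest and GC7 replicate 3 the lowest library. *Pold3*, the third subunit in the list, had a log2 fold change of -0.10 ± 0.062 (adjusted p = 0.171). *Pole* (chromosome 5, 110286306 to 110337474), the catalytic subunit of the leading strand polymerase, had 105, 80.3, 103 and 104 CPM in mock replicates 1 to 4 and 123, 125, 124 and 112 CPM in GC7 replicates 1 to 4. Mock replicate 2 was far below the other mock libraries, but the other 3 were also below all GC7 libraries (log2 fold change 0.30 ± 0.086, adjusted p = 0.00931). Without mock replicate 2, the log2 fold change of *Pole* was 0.22 (adjusted p = 0.00291 in edgeR's test), while leaving out any other library took the call past the threshold, to adjusted p of up to 0.0278. *Pole2*, the accessory subunit that binds it, went the other way, from 27.4 ± 1.70 to 21.4 ± 1.54 CPM (log2 fold change -0.35 ± 0.078, adjusted p = 0.002). The log2 ratio of *Pole* to *Pold1* was -1.29, -1.77, -1.27 and -1.32 in mock replicates 1 to 4 and -0.55, -0.48, -0.56 and -0.79 in GC7 replicates 1 to 4. It was higher in every GC7 library than in every mock library. The difference of 0.82 was the largest of the 6 and did not pass (exact permutation p = 0.0286, adjusted p = 0.0571). Without mock replicate 2 it was 0.70.

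**Figure D2:**
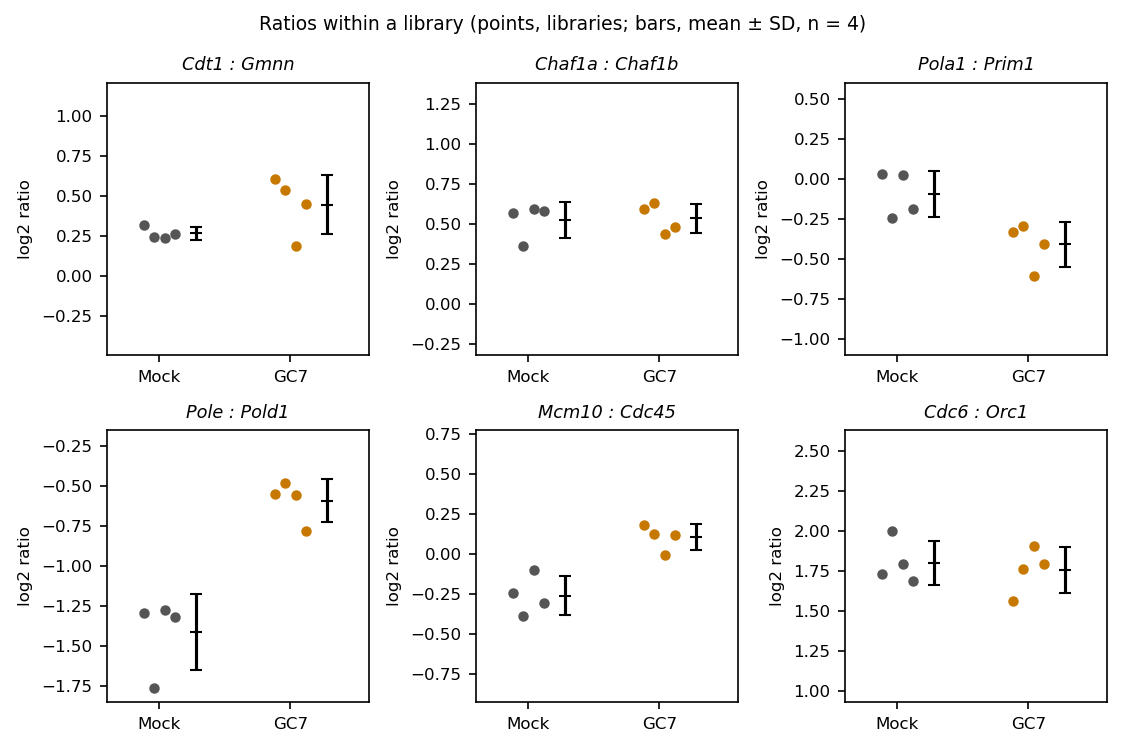
The 6 log2 ratios within a library (y axis, the same span of values in each panel) in mock and GC7 libraries (x axis). Points are libraries and bars are the mean ± SD (n = 4 per group). The libraries of the 2 groups separate for *Pola1* to *Prim1*, *Pole* to *Pold1* and *Mcm10* to *Cdc45* and overlap for the other 3 ratios.

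The clamp gene fell, and no gene of its loader passed. *Pcna* (chromosome 2, 132249162 to 132253314), the ring that holds both polymerases on DNA, was the most abundant of the 40 mRNAs per length (231 CPM per kb in mock, 180.3 CPM per kb in GC7 libraries) and fell from 554 ± 41.6 to 433 ± 4.65 CPM (log2 fold change -0.36 ± 0.066, adjusted p = 0.000579). Its near-identical pseudogene *Pcna-ps2* also passed the filter (27.1 CPM in mock and 19.8 CPM in GC7 libraries), so some reads may have been exchanged. None of the 5 clamp loader genes was called by edgeR, DESeq2 or limma-voom, and none had an unadjusted p under 0.05. *Rfc3* had 42.3, 46.5, 39.8 and 42.8 CPM in mock replicates 1 to 4 and 40.8, 45.01, 50.3 and 44.4 CPM in GC7 replicates 1 to 4 and *Rfc5* had 62.3, 69.6, 59.8 and 64.5 CPM in mock replicates 1 to 4 and 65.04, 65.8, 62.2 and 65.5 CPM in GC7 replicates 1 to 4, with overlapping groups in both cases. Their log2 fold changes were 0.074 ± 0.077 (95% interval -0.078 to 0.23) and 0.012 ± 0.063 (-0.11 to 0.14). *Rfc1*, the large subunit, was at 0.056 ± 0.068 (-0.077 to 0.19), *Rfc4* at 0.069 ± 0.075 (-0.079 to 0.22) and *Rfc2* at -0.13 ± 0.074 (-0.28 to 0.013), the last with 15.1% of its exon bases shared with *Lat2*. These intervals leave out a fall as large as the estimate for *Pcna* and a rise as large as that for *Mcm10*, and they do not show that the genes were unaltered.

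The single-strand binding protein RPA has 3 subunits, of which *Rpa1* fell, *Rpa2* rose and *Rpa3* did not pass. *Rpa1*, the large DNA-binding subunit, went from 299 ± 3.71 to 237 ± 9.35 CPM (log2 fold change -0.34 ± 0.055, adjusted p = 0.000234). *Rpa2*, the subunit phosphorylated under replication stress, went from 76.5 ± 4.88 to 90.98 ± 3.09 CPM (log2 fold change 0.25 ± 0.063, adjusted p = 0.00444), a call lost under 6 of the 17 alternative fits (adjusted p up to 0.0185), namely without GC7 replicate 2, 3 or 4 and without mock replicate 1, 3 or 4. *Rpa3* had a log2 fold change of 0.051 ± 0.09 (95% interval -0.13 to 0.23). In Okazaki fragment joining, *Lig1* (chromosome 7, 13277283 to 13311433), the DNA ligase of replication, had 272, 277, 254 and 264 CPM in mock replicates 1 to 4 and 213, 199, 185 and 212 CPM in GC7 replicates 1 to 4, and all GC7 values lay below all mock values (log2 fold change -0.40 ± 0.063, adjusted p = 0.000185). *Fen1*, the flap endonuclease, had a log2 fold change of -0.042 ± 0.11 (95% interval -0.26 to 0.17), but 84.2% of its exon bases are shared with *Gm10143* and *Tmem258*, so its low count (12.4 ± 1.32 CPM in mock, 12.02 ± 1.36 CPM in GC7 libraries) may not stand for its level.

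Neither gene of CAF-1, the histone chaperone that works behind the fork, passed. *Chaf1a* had 84.9, 81.7, 79.4 and 81.3 CPM in mock replicates 1 to 4 and 76.2, 79.2, 69.9 and 75.4 CPM in GC7 replicates 1 to 4 and *Chaf1b* had 57.1, 63.6, 52.7 and 54.4 CPM in mock replicates 1 to 4 and 50.6, 51.1, 51.6 and 54.01 CPM in GC7 replicates 1 to 4. The *Chaf1a* groups did not overlap and the *Chaf1b* groups did, and neither reached the threshold in edgeR's test (log2 fold changes -0.12 ± 0.059 and -0.14 ± 0.07, adjusted p = 0.0948 and 0.111, unadjusted p = 0.062 and 0.0744, with neither called by DESeq2 or limma-voom). Of the exon bases of *Chaf1a*, 52.5% are shared with *Ubxn6*. The log2 ratio of *Chaf1a* to *Chaf1b* was 0.53 ± 0.11 in mock and 0.54 ± 0.091 in GC7 libraries (SD, n = 4), a difference of 0.01 (exact permutation p = 0.914, adjusted p = 0.914).

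**Figure D3:**
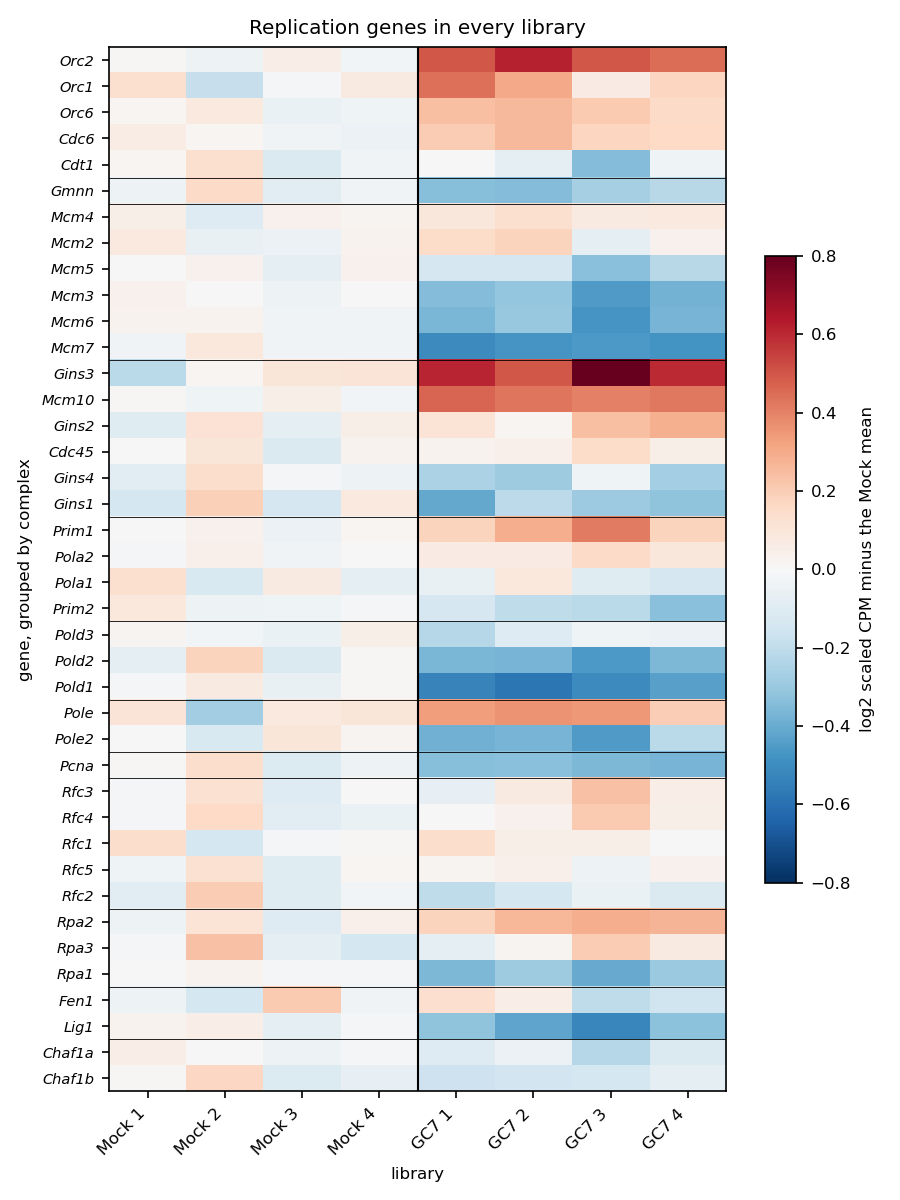
Each cell is the log2 scaled CPM of a gene (y axis, grouped by complex with thin lines between complexes) in a library (x axis, 4 mock and 4 GC7) minus that gene's mean over the mock libraries. The colour scale ends at 0.8 in either direction, and *Gins3* in GC7 replicate 3 lies just past it. *Orc2*, *Gins3* and *Mcm10* are red in all 4 GC7 libraries and *Mcm3*, *Mcm6*, *Mcm7*, *Pold1*, *Pold2*, *Lig1* and *Pcna* are blue in all 4, while the clamp loader genes overlap between the groups.

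The members that fell were mostly the abundant ones. The 10 most abundant members (215 to 554 CPM in mock libraries) held 7 of the 11 falls and no rise (none by edgeR, DESeq2 or limma-voom, and none at an unadjusted p under 0.05), with a median log2 fold change of -0.36. The middle 20 members (52.4 to 145 CPM) held 6 rises and 2 falls (median -0.020), and the 10 least abundant members (12.4 to 46.7 CPM) held 2 rises and 2 falls (median 0.071). The log2 level per kb in mock and the log2 fold change had a Pearson r of -0.63 and a Spearman rho of -0.60 across the 40 genes, which share libraries and are not independent replicates. With the log2 level in CPM, as in the bands, r was -0.55 and rho -0.51. Across all 11189 genes the same relation was present and weaker (r = -0.25, rho = -0.27 per kb, and r = -0.22, rho = -0.24 in CPM). The mock level is also the denominator of the fold change, so level and change are not independent measures. Of the 842 genes at least as abundant as the 10 most abundant members, 45.5% fell and 16.3% rose, with a median log2 fold change of -0.20. Of the 3628 genes between these bands, 28.7% fell and 16.6% rose (median -0.062), whereas the middle 20 members held more rises than falls. Of the 6719 genes at or below the level of the 10 least abundant members, 18% fell and 27.4% rose (median 0.095). Exon length had little relation to the change among the members (r = 0.15). *Mcm2* and *Mcm4* were the exceptions at the abundant end, with log2 fold changes of 0.074 and 0.093 at 215 and 247 CPM in mock libraries, and *Mcm5* was outside the threshold.

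**Figure D4:**
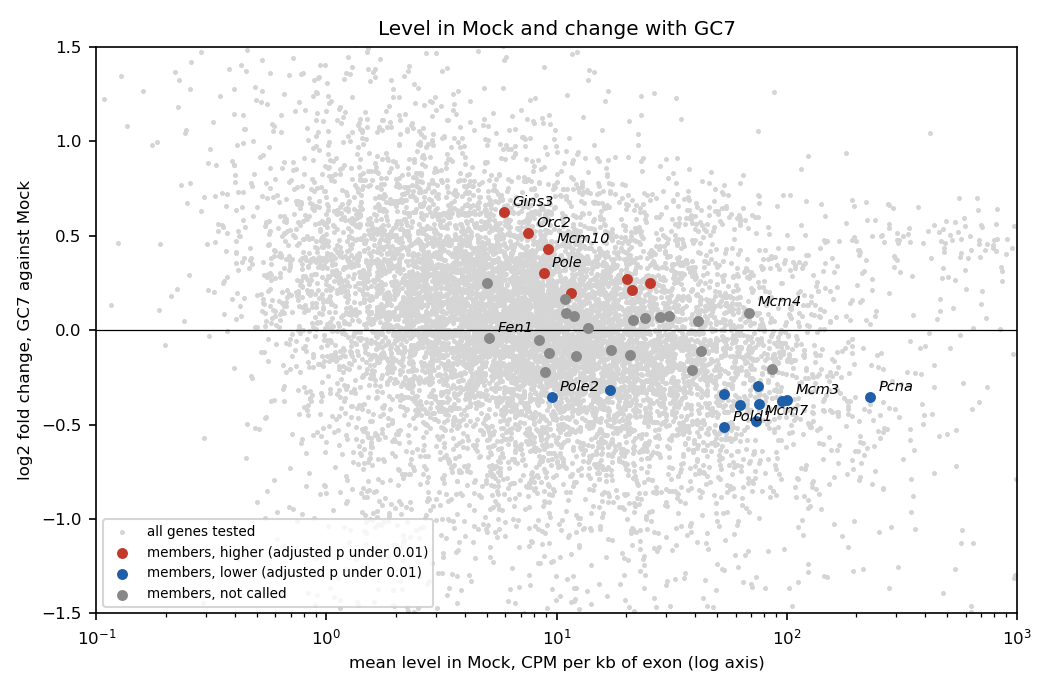
Mean level in mock libraries (x axis, scaled CPM per kb of exon, log axis) against the log2 fold change of GC7 against mock (y axis) for all 11189 genes tested (light grey) and the 40 replication genes (red, higher; blue, lower; dark grey, not called). Genes outside the axes are not drawn. All but *Pole2* and *Gins1* of the blue genes lie at the abundant end, with *Pcna* furthest to the right, and the red genes lie at or below 25.6 CPM per kb.

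Further genes of the pathway were taken as 3 lists, which do not hold any of the 40. The other replication genes (43 listed, 42 matched to a single identifier and tested, Chtf8 not) had 12 higher and 5 lower (28.6% and 11.9%, against 23.0% and 23.5% of all genes) and a median log2 fold change of 0.041. The 4 largest rises past the threshold were those of *Recql4* (0.80 ± 0.067, adjusted p = 8.68e-07), a helicase with a part in initiation, *Dtl* (0.59 ± 0.077), the ubiquitin ligase receptor that marks CDT1 for destruction in S phase, *Mcm8* (0.50 ± 0.067), an MCM relative used in repair, and *Tipin* (0.49 ± 0.066), which steadies the fork with *Timeless*. Among genes past the threshold, the 4 largest falls were those of *Rnaseh2b* (-0.53 ± 0.081), part of the nuclease that removes ribonucleotides from DNA, *Dna2* (-0.44 ± 0.10), a nuclease of long flaps, *Ssrp1* (-0.42 ± 0.072), a subunit of the histone chaperone FACT, and *Orc5* (-0.41 ± 0.07), a further ORC subunit. *Orc4* rose while *Orc5* fell (log2 fold changes 0.43 and -0.41), so the ORC genes too went both ways.

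The replication checkpoint genes, which sense stalled forks and broken DNA, had positive log2 fold changes in 19 of 23 cases. Over all genes tested, 5783 of 11189 had a positive value. The list was chosen with earlier results of these data known. Most of its genes lay at or below 46.7 CPM in mock libraries, where 27.4% of the genes tested rose. Of the 23 genes, 11 rose (47.8%, against 23.0% of all genes tested) and none was called lower by edgeR or limma-voom (1 at an unadjusted p under 0.05, and 1 by DESeq2), with a median log2 fold change of 0.28. *Atm* (0.61 ± 0.16, adjusted p = 0.00514), a kinase of the DNA break response, *Chek1* (0.58 ± 0.063, adjusted p = 7.81e-06), the kinase that ATR switches on at stalled forks, *Cdc25a* (0.57 ± 0.076, adjusted p = 4.45e-05), the phosphatase that CHK1 restrains, and *Exo1* (0.55 ± 0.072, adjusted p = 3.49e-05), a nuclease of DNA ends, rose most. *Chek1* had 30.8, 27.7, 28.8 and 29.6 CPM in mock replicates 1 to 4 and 42.7, 45.7, 43.2 and 43.4 CPM in GC7 replicates 1 to 4, so that its groups were well apart. The rise of *Atm* depended in size on mock replicate 2, the lowest library for it (27.2 CPM against 46.5 to 49.99 CPM in the other mock libraries), and was 0.45 without that library. The *Atm* call was lost without GC7 replicate 1, 2 or 3 (0.55, adjusted p = 0.0193 in edgeR's test without the third).

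The E2F and pocket protein genes, which turn the replication genes on and off, went both ways. Of 18 genes, 8 rose (44.4%, against 23.0%) and 3 fell (16.7%, against 23.5%), with a median log2 fold change of 0.29. *Tfdp1* (0.78 ± 0.062, adjusted p = 5.25e-07), the dimer partner of the E2Fs, *Lin52* (0.67 ± 0.15) of the DREAM complex, *E2f6* (0.64 ± 0.076), a repressive family member, and *Rbl2* (0.51 ± 0.11), a pocket protein, rose most, and *Rb1* and *Rbl1*, the other pocket protein genes, rose by 0.50 and 0.45. *E2f2* (-0.49 ± 0.054, adjusted p = 9.27e-06), an activator, *E2f8* (-0.44 ± 0.074), an atypical repressor, and *E2f4* (-0.38 ± 0.076), a partner of the pocket proteins, fell. *E2f1*, the activator most often tied to these targets, had a log2 fold change of 0.017 ± 0.071 (95% interval -0.12 to 0.16, adjusted p = 0.852). No gene of the 3 lists passed a 2-fold change in edgeR, DESeq2 or limma-voom, also at an unadjusted p under 0.05. Mock replicate 2 was the lowest mock library for all 3 pocket protein genes, whose log2 fold changes without it were 0.39 (*Rbl2*), 0.44 (*Rb1*) and 0.36 (*Rbl1*), all still past the threshold in edgeR's test. The size of the *Lin52* rise rested on GC7 replicate 3. Without that library it was 0.50, below the 0.69 of *E2f6*.

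**Figure D5:**
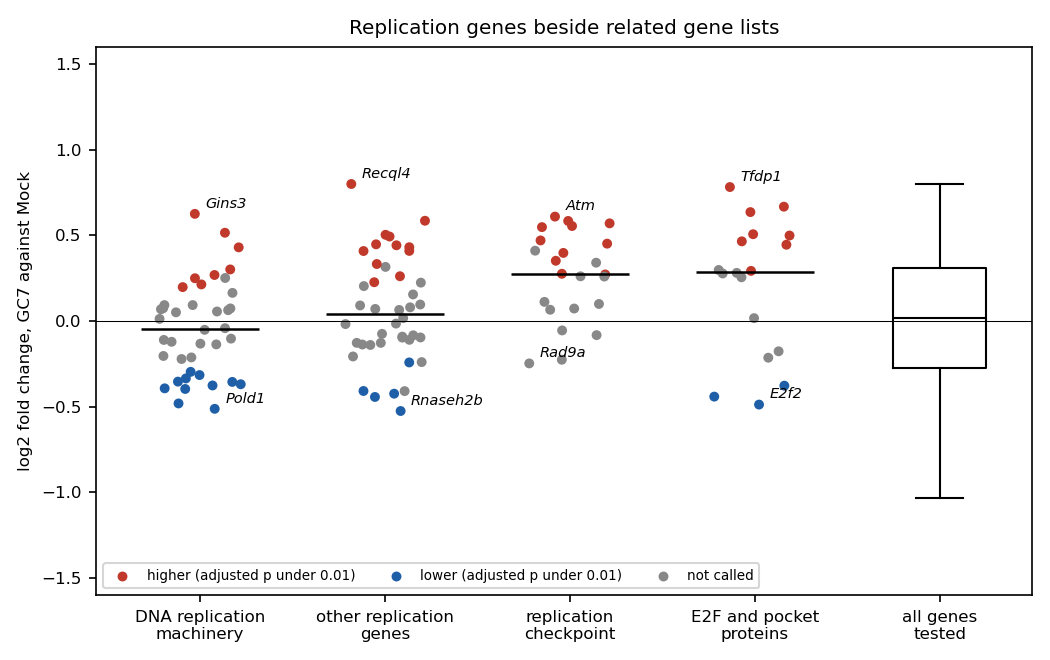
Log2 fold changes of GC7 against mock (y axis) for the genes of 4 lists (x axis, 1 point per gene, spread sideways for legibility, with the highest and lowest gene named and a line at the median) and, as a box, for all genes tested (median, quartiles and whiskers at the 5th and 95th percentiles). The checkpoint list holds red points (higher) and no blue point (lower), while the replication machinery holds both.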

How the data were processed

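Messenger RNA of 8 libraries (4 mock, 4 GC7) was sequenced, and groups and replicate numbers were taken from the sample labels. Read pairs were trimmed (Cutadapt, version 2.3) and placed on GRCm38 (STAR, version 2.7.1a) by the authors, who counted reads per Ensembl gene with featureCounts and deposited these counts without normalisation, 1 table per library. The strand setting and the treatment of reads with several matches are not given in the sources used here. All gene identifiers matched GENCODE vM21, the annotation release of that build, from which symbols, positions and exon lengths were taken.

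A gene was kept where 4 or more libraries exceeded 3 CPM (52.6 counts in the smallest library). GC7 was compared with mock by edgeR (version 4.0.16; limma version 3.58.1, R version 4.3.3) with TMM factors, a model holding the group alone, its quasi-likelihood F test and p-values adjusted (Benjamini-Hochberg) over 11189 genes, with a threshold of 0.01. The study set 0.01 together with a 2-fold change, so the calls without a fold limit are not its criterion. Values per gene are TMM-scaled CPM, and log2 ratios within a library used a prior count of 2. Intervals at 95% come from the standard error by a normal approximation and are somewhat narrow beside the F test. For *Chaf1a* the interval (-0.237 to -0.00565) leaves out 0, with an unadjusted p of 0.062 in edgeR's test. The ratios were compared by exact permutation over libraries, with a threshold of 0.05 on the adjusted p. TMM rests on most genes being unaltered and cannot show a shift in the whole mRNA content of a cell.

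The members, the other lists and the tests were chosen with earlier results of these data known. Named in full are the 5 largest rises and 5 largest falls among members past the threshold, *Cdc45*, *Rfc3* and *Rfc5*, and the members of the 6 ratios; of the other lists, up to 4 genes per direction past the threshold. *Orc4*, *Rb1*, *Rbl1* and *E2f1* are not covered by this rule and were picked once their values had been seen. Alternatives were RLE factors, library totals, TMM without mitochondrially encoded genes, no filter, filterByExpr, DESeq2 (version 1.42.0), limma-voom, robust estimation, an adjusted p under 0.05, prior counts of 0.5 and 5, the replicate number as a block, and each library left out. The fits were tested on simulated data in which few genes differed, so that check does not bear on TMM where many genes differ. Near-identical copies were found with BLAST (version 2.17.0; at least 200 bases and 90% identity). Promoter windows are RefSeq's. Outlying libraries were looked for with Dixon's ratio at its 95% critical value. A planned search of the proteins for proline motifs was not run.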

Additional observations from a re-analysis of the deposited data

Results flagged for a closer look

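In 16 of the 138 groups of 4 libraries looked at (the members, the named genes of the other lists and the 6 ratios, mock and GC7 apart), the highest or the lowest library was set off from the other 3 by more than Dixon's 95% critical value. Chance alone sets off about 1 group in 20, or 6.9 here, and 8 of the 16 were mock replicate 2 and 7 were GC7 replicate 3.

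Mock replicate 2 was set off as the highest mock library for *Mcm7* (Dixon's ratio 0.985) and *Rnaseh2b* (0.842). It was set off as the lowest for *Pole* (0.925), *Atm* (0.845), *Rbl2* (0.877) and *Rbl1* (0.865), and for the log2 ratios of *Chaf1a* to *Chaf1b* (0.911) and of *Pole* to *Pold1* (0.903). Across the 40 members, the log2 deviation of this library from the other 3 mock libraries had a Pearson r of -0.54 with log2 exon length, beside -0.52 across all genes tested. Without it, the log2 fold changes were -0.45 for *Mcm7*, -0.43 for *Rnaseh2b*, 0.22 for *Pole*, 0.45 for *Atm*, 0.39 for *Rbl2* and 0.36 for *Rbl1*, all past an adjusted p of 0.01 in edgeR's test.

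GC7 replicate 3 was set off as the highest GC7 library for *Cdc45* (0.863), *Gins4* (0.885), *Dtl* (0.926), *Lin52* (0.904) and *Rbl1* (0.946), and as the lowest for *Pold2* (0.832) and *Exo1* (0.881). Without it, the log2 fold change was 0.033 for *Cdc45* (adjusted p = 0.669) and -0.28 for *Gins4* (adjusted p = 0.00591), so that *Gins4* was called lower at 0.01 without this library and under no other alternative fit. For the rest it was 0.54 (*Dtl*), 0.50 (*Lin52*), 0.42 (*Rbl1*), -0.37 (*Pold2*) and 0.59 (*Exo1*), all past 0.01 in edgeR's test. The remaining group was *Pole* in GC7 libraries, where replicate 4 was the lowest (0.84).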

How the results depend on the processing

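Of the 19 members called, 11 were called in the same direction under all 17 alternative fits, and of the 21 others 16 were called under none. The like share over all genes tested is not given here, and their calls moved too. Genes higher (2579) went to 3346 with library totals and to 2096 without GC7 replicate 4. Genes lower (2635) went to 2056 and 2314 under the same fits. The number of members higher (8) went to 4 with the replicate number as a block, where *Cdc6*, *Orc6*, *Prim1* and *Pole* were lost, and ranged from 3 to 8 as each library was left out. The members lower (11) ranged from 10 to 11 on leaving out libraries and from 8 (library totals) to 13 (DESeq2) under other fits, and were 14 at an adjusted p under 0.05. The median log2 fold change of the members, -0.047, was 0.047 with library totals, which raised the median of all genes by 0.094, and ranged from -0.0901 to -0.0155 as each library was left out. The other replication genes lower (5) went to 3 with library totals, and the checkpoint genes lower (0) to 1 with DESeq2 and with an adjusted p under 0.05, and to between 0 and 1 on leaving out libraries (1 without mock replicate 2). *Pola1* and *Fen1*, neither called, changed sign with library totals (0.042 and 0.052), and 3 uncalled members and *E2f1* crossed 0 on leaving out libraries (*Rfc5* -0.0192 to 0.0582, *Rpa3* -0.00374 to 0.139, *Fen1* -0.107 to 0.0338, *E2f1* -0.0125 to 0.0654). Neither prior count moved a ratio across its threshold of 0.05. With only 3 ratios at the smallest p, their adjusted p cannot go below 0.0571.

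Same-numbered mock and GC7 libraries did not all deviate together (correlations of their deviations from the group means 0.272, -0.116, 0.202 and -0.183). The mean over the other pairings was -0.02. So few values cannot decide whether same-numbered libraries share a donor. With the replicate block, the members lower stayed at 11 and the checkpoint genes higher were 12 in place of 11. For the ratios a block leaves the differences as they are, and its exact sign-flip test over 4 pairs cannot go below 0.125. The causes of these shifts were not tested. Depth limits the least abundant members most, the lowest count of a member in a library being 192. Overlapping genes without a known strand setting are a limit for *Fen1*, *Gins2*, *Chaf1a* and *Orc2*.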
